A study of Solanum lycopersicum with 24 samples.

Results

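The WRKY transcription factor family was followed in fruit of Solanum lycopersicum, a purple tomato line. Its members were taken as all genes whose deposited description contains the word WRKY, with 1 of the 99 matching genes set aside by the rule of selection. This gave 98 genes of the 34689 in the TPM table (a level scaled per gene length and per library). The rule itself used no measured value, but it was set with earlier results of these data known. Of these 98 genes, 70 carry a numbered name in the descriptions and the others are called here by their identifier alone.

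The 24 libraries all came from MT-Aft/atv/hp2 plants and fell into 8 groups of 3. In every group the fruit carried the same alleles: Aft and atv, which raise anthocyanin in the fruit, and hp2, which heightens the response to light. Covered fruits had their flowers wrapped in aluminium foil at opening and stayed wrapped for 30 d, and were then taken at 0 d, 2 d or 5 d of light. Control fruits grew in light for 30 d, and epicarp (skin) and mesocarp (flesh) were taken separately from all fruits. The groups are thus epicarp at 0 d, 2 d and 5 d and epicarp control, and mesocarp at 0 d, 2 d and 5 d and mesocarp control. Darkness came only with the foil, so an effect of darkness cannot be told apart from one of the cover, nor an effect of light from one of unwrapping. Fruit at 2 d and 5 d of light was also older than the 0 d and control fruit, both taken after 30 d. In those comparisons an effect of light cannot be told apart from one of fruit age. The labels do not say whether replicates were separate plants or fruits, so p-values measure the spread between these samples, which may be technical.

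WRKY proteins are plant transcription factors with a conserved DNA-binding domain and a zinc finger, and they bind W-box elements in promoters. Many act in defence against pathogens, in leaf senescence and in responses to salt, drought and wounding, and several are phosphorylated by MAP kinases or bind partner proteins with a VQ motif. In tomato fruit, some members have been linked to ripening and carotenoid accumulation, and in Arabidopsis others regulate senescence brought on by darkness.

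The libraries held 18402751 to 23197867 assigned reads. The pigment genes marked the conditions: DFR, an enzyme of anthocyanin synthesis, was at 1.18 to 1.54 TPM in epicarp at 0 d, 5141 to 5652 TPM at 2 d and 1583 to 1772 TPM in epicarp control. The epidermal cuticle genes separated the tissues in control fruit. The cutin synthase CD1 stood at 797.6 to 2084 TPM in epicarp control and 1.01 to 2.10 TPM in mesocarp control. At 2 d CD1 stood at 4.98 to 7.37 TPM in epicarp, far below epicarp control, yet above the 0 to 0.212 TPM of mesocarp at 2 d. Within epicarp at 0 d, however, CD1 stood at 5746, 73.7 and 0.274 TPM in replicates 1, 2 and 3, and in mesocarp at 0 d it stood at 370.5, 0.0819 and 0 TPM. GPAT6, also a cuticle gene, followed the same order in epicarp at 0 d (2043, 30.1 and 0.329 TPM), but CER3 and CER6 did not. CER3 stood at 21.8, 18.5 and 47.0 TPM there, and CER6 at 968, 334 and 493 TPM. Both were above mesocarp at 0 d, where CER3 was at most 1.21 TPM and CER6 at most 78.9 TPM. The 0 d libraries of both tissues thus differ among themselves in CD1, which the other cuticle genes followed only in part. Calls that ended when 1 library was left out are named beside the results.

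Part of the family was without reads in these libraries, as was part of all genes. No read was found in any library for 34 of the 98 members. Reads too few for the test were found for 21 further members, which had at most 104 reads over all 24 libraries; this highest total belongs to WRKY16 (Solyc02g032950.3). The remaining 43 members passed the filter on low counts and were tested among 19620 genes, out of 34688 counted. Single libraries held reads for 38 to 50 of the 98 members and for 18722 to 20625 of the 34688 genes. The share of all genes without a read in any library is not given here. All 7 members described as WRKY22-like were without a read, as were 10 of the 15 described only as DNA-binding WRKY. The silent members lay on 9 of 12 chromosomes, with 14 of 22 on chromosome 5 and 8 of 12 on chromosome 4, against 0 of 6 on chromosome 7.

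Among the members with reads, levels spanned a wide range. A mean of at least 10 TPM over the 24 libraries was reached by 21 members, 17 lay between 1 and 10 TPM, and 26 lay under 1 TPM. These TPM are per length of the whole gene interval, introns included, which bears on the order of levels between genes. On that scale the highest mean level was that of WRKY81 (Solyc09g015770.3), which restrains drought tolerance in tomato, at 147 TPM with a range of 14.9 to 358 TPM. WRKY3 (Solyc02g088340.4), linked to salt tolerance in tomato, averaged 65.9 TPM and WRKY21 (Solyc06g008610.3) averaged 63.9 TPM. WRKY11 (Solyc08g006320.5) averaged 58.8 TPM, WRKY2 (Solyc07g066220.3) 56.6 TPM and WRKY5 (Solyc03g104810.3) 49.6 TPM. By reads summed over the libraries WRKY2 (56290) and WRKY5 (50371), whose intervals are longer, stood above WRKY81 (47515). These means hide unequal spreads: over the 24 libraries WRKY21 ran from 40.2 to 83.8 TPM, whereas WRKY11 ran from 10.9 to 222 TPM.

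**Figure D1:**
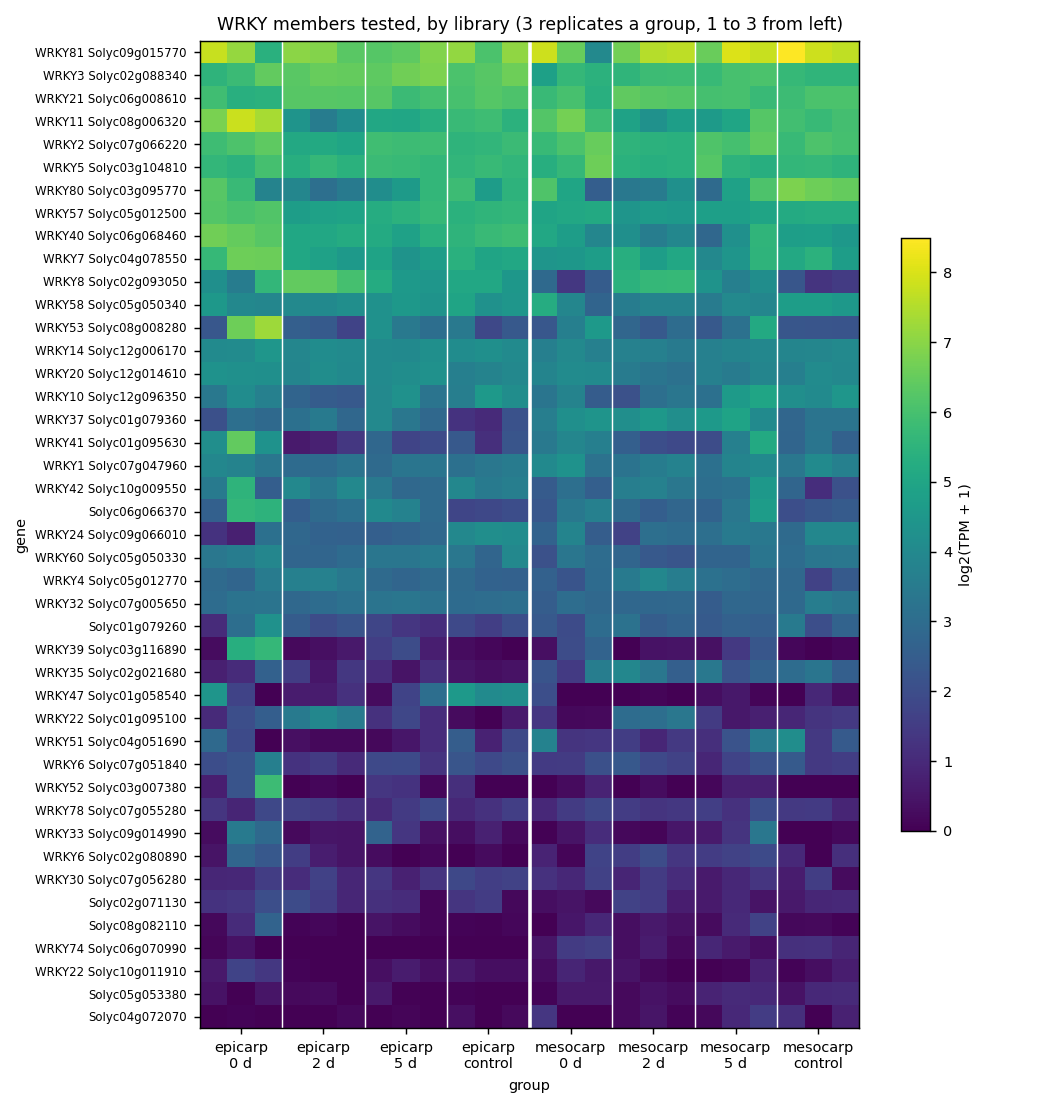
Level of each of the 43 tested WRKY members (rows, ordered by mean TPM) in each of the 24 libraries (columns, by group and replicate), coloured by log2(TPM + 1). WRKY81 tops the list with a mean of 147 TPM, and several lower rows are bright in only 1 or 2 of the 3 epicarp libraries at 0 d.

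Summed over the 98 members, the family reached 1038, 1358 and 1295 TPM in epicarp at 0 d, against 818, 725 and 828 TPM in epicarp control. The 3 epicarp 0 d libraries were above all 3 control libraries. At 2 d of light the epicarp sum was 717, 714 and 639 TPM, below every 0 d library, and at 5 d it was 725, 685 and 772 TPM. In mesocarp the sum was 806, 726 and 611 TPM at 0 d and 1013, 891 and 835 TPM in control. There every 0 d library was below every control library. This sum leans on the highest members. WRKY81 stood at 230, 90.5 and 14.9 TPM in mesocarp at 0 d, against 358, 229.5 and 205 TPM in mesocarp control. The median log2 change of the 43 tested members was 0.21, against 0.01 over all genes tested, and 23 had a positive change.

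**Figure D2:**
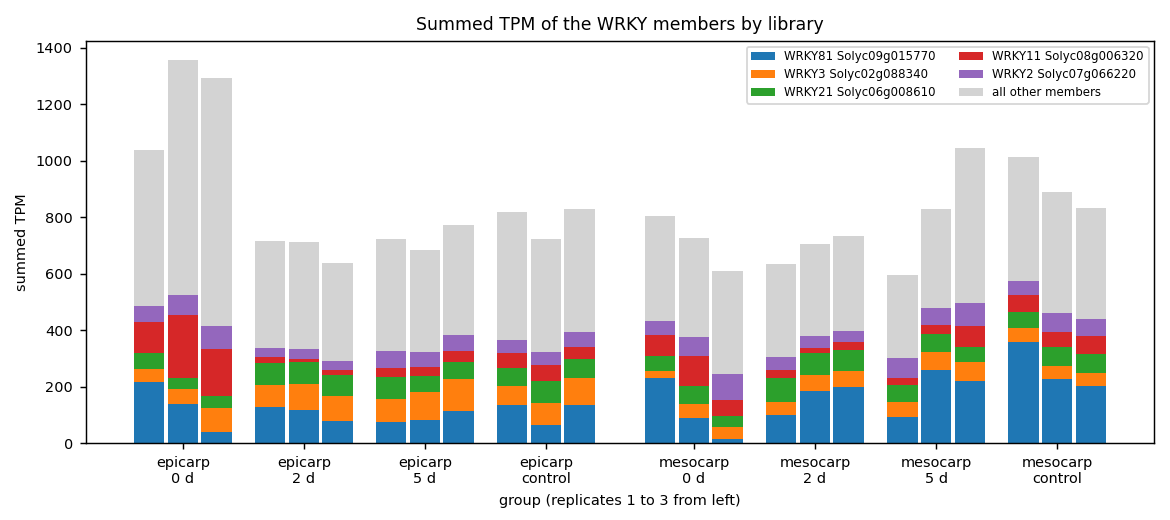
Summed TPM of the 98 WRKY members in each library (bars, from 0), split into the 5 members of highest mean and all others. The epicarp 0 d bars reach 1038 to 1358 TPM, above the other epicarp bars, and their parts for WRKY11 and for all other members are taller than in those bars.

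In epicarp, more tested WRKY members were higher after growth under the cover than lower. Of 43 members, 16 rose and 2 fell at 0 d relative to control by edgeR's quasi-likelihood test with Benjamini-Hochberg adjustment over all genes, where 10.1% of all tested genes rose and 9.08% fell (19.1% in either direction). The members' median log2 change was 0.57, against 0.04 over all genes tested, and 34 of the 43 had a positive change. In bulk tissue, fewer cells of a type and less RNA per cell cannot be told apart.

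The best supported of these was WRKY57 (Solyc05g012500.3; SL4.0 chromosome 5, 5823277 to 5826674, minus strand), a salt-response factor in tomato. It stood at 73.6, 65.9 and 71.5 TPM in epicarp at 0 d, against 42.1, 46.3 and 48.7 TPM in epicarp control. The groups did not overlap, and the log2 change was 0.57 ± 0.10 (SE; edgeR adjusted p = 0.000773).

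WRKY11 (chromosome 8, 997291 to 998846, minus strand), whose Arabidopsis namesake limits basal defence, showed a larger change. Its level was 110, 222 and 167 TPM at 0 d, against 53.1, 56.9 and 43.3 TPM in control, again without overlap. The log2 change was 1.66 ± 0.35 (edgeR adjusted p = 0.00333). WRKY7 (Solyc04g078550.3; chromosome 4, 61240960 to 61242699, plus strand) reached 50.8, 96.6 and 94.0 TPM at 0 d, against 40.5, 30.0 and 32.7 TPM in control. All 3 values at 0 d were above all 3 in control, with replicate 1 the nearest to them, and the log2 change was 1.17 ± 0.33 (edgeR adjusted p = 0.0176; 0.058 to 0.104 without any of 4 of the 6 libraries).

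Several members were high in 2 of the 3 covered epicarp libraries and low in replicate 1. WRKY39 (Solyc03g116890.3), linked to salt, drought and Pseudomonas resistance in tomato, had 0.222, 38.7 and 49.7 TPM at 0 d, against 0.229, 0.102 and 0 TPM in control. The ranges overlap through replicate 1 of each group, and the log2 change was 7.96 ± 1.66 (edgeR adjusted p = 0.00284). The covered group held 1432 reads of this gene and the control group 6.

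WRKY53 (Solyc08g008280.3), whose Arabidopsis namesake promotes leaf senescence, followed the same order with 3.95, 97.8 and 151 TPM at 0 d, against 9.87, 2.60 and 4.21 TPM in control. Its groups overlap, and its log2 change was 3.83 ± 0.98 (edgeR adjusted p = 0.0104; 0.0567 without control replicate 2). The unnumbered member Solyc06g066370.5 had 5.11, 48.5 and 44.2 TPM at 0 d, against 2.45, 2.58 and 2.99 TPM in control, without overlap, and changed by 3.56 ± 0.66 (edgeR adjusted p = 0.00127). WRKY41 (Solyc01g095630.3) was highest in replicate 2, with 17.2, 87.0 and 18.9 TPM at 0 d and 4.16, 1.23 and 3.76 TPM in control.

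The other members that rose carried fewer reads or smaller changes. WRKY52 (Solyc03g007380.2) had 0.650, 3.65 and 55.5 TPM at 0 d, against 1.23, 0 and 0 TPM in control, so 1 library holds most of its reads and without it the call ended (edgeR adjusted p = 0.368), as it did without control replicates 2 or 3 (0.12 and 0.112) and with the replicate number as a block (0.135). WRKY74 (Solyc06g070990.3) had 13 reads at 0 d and 0 in control, which makes it at least 4.57-fold higher on a floor of 3 reads over the group; its call ended without any of 4 of the 6 libraries (edgeR adjusted p = 0.0951 to 0.181) and with the block (0.054). WRKY6 (Solyc02g080890.3), WRKY22 (Solyc01g095100.4), WRKY35 (Solyc02g021680.3), WRKY37 (Solyc01g079360.4) and Solyc08g082110.5 also rose, by 1.53 to 5.54 on the log2 scale. WRKY2 and WRKY20 (Solyc12g014610.2) rose by 0.46 and 0.44 (edgeR adjusted p = 0.0497 and 0.0255), and neither call held without the filter on low counts (adjusted p = 0.0869 and 0.0629) or, for WRKY2, with DESeq2 size factors (0.0585). Solyc08g082110.5 overlaps a gene on the other strand, and the sources used here do not state whether counting used strand, so its reads cannot be assigned with certainty.

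Only WRKY24 and WRKY21 fell in covered epicarp. WRKY24 (Solyc09g066010.3) stood at 1.38, 0.694 and 7.86 TPM at 0 d, against 14.6, 17.5 and 16.7 TPM in control, and its log2 change was -2.40 ± 0.62 (edgeR adjusted p = 0.0104). WRKY21 stood at 57.9, 40.3 and 41.9 TPM at 0 d, against 64.4, 75.4 and 68.2 TPM in control, a log2 change of -0.62 ± 0.16 (edgeR adjusted p = 0.0118; 0.0503 and 0.0552 without 0 d replicates 2 and 3). Neither gene's groups overlapped.

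The count of 18 depended on the design, and the other fits are given here without the share of all genes passing. Fitted on the epicarp 0 d and control libraries alone, WRKY57 and WRKY11 were the 2 members that passed, and 4 of the 18, WRKY39 among them, fell below the filter on low counts; leaving out control replicate 2, control replicate 1 or 0 d replicate 2 left 9, 10 and 11. WRKY57, WRKY11, WRKY39, WRKY41, WRKY24 and Solyc06g066370.5 kept their calls with each library left out in turn. The WRKY2 call ended without any of 5 of the 6 libraries (adjusted p = 0.0686 to 0.204), and those of WRKY20, WRKY35 and WRKY37 without any of 4 (0.0905 to 0.149, 0.0736 to 0.272 and 0.0511 to 0.114). WRKY6 lost its call without any of 3 libraries (0.0514 to 0.0634), Solyc08g082110.5 likewise (0.0688 to 0.125), and WRKY22 without control replicate 1 (0.0535).

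Many WRKY members were uneven between the covered epicarp libraries. Among the 40 members with a mean of at least 10 reads, 18 (45%) differed at least 4-fold between the 3 epicarp 0 d libraries, against 15.67% of 18300 genes of that abundance. In epicarp at 2 d this held for 2 of the 40 members (5%, against 2.44% of genes), at 5 d for 7 (17.5%, against 5.39%) and in epicarp control for 4 (10%, against 2.91%). In mesocarp at 0 d it held for 14 (35%), against 16.63% of genes. Of the 18 uneven members in epicarp, 9 were highest in replicate 3, 5 in replicate 2 and 4 in replicate 1.

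Ripening and cuticle genes differed between the same libraries. The ripening regulator NOR stood at 0.0467, 2.85 and 197 TPM in epicarp 0 d replicates 1, 2 and 3, the fruit polygalacturonase PG2a at 0, 10.1 and 302 TPM, and the ethylene-responsive gene E8 at 124, 197 and 2763 TPM. All 3 ripening markers found in the files were higher at 0 d than in epicarp control by the test, and their summed level was 124 to 3262 TPM at 0 d, against 17.1 to 34.2 TPM in control. The 4 cuticle markers summed to 456 to 8779 TPM at 0 d, against 2425 to 4400 TPM in control. In 0 d replicate 1 CD1 and GPAT6 made up most of this sum, at 5746 and 2043 TPM. The part of the ripening and cuticle genes in the WRKY results was not tested. Proteinase inhibitors, which wounding induces, summed over 41 genes to 1212 to 3267 TPM, against 5636 to 6122 TPM in control.

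In epicarp 0 d replicate 1 WRKY33 was lowest and WRKY47 highest. WRKY33 (Solyc09g014990.4), needed for resistance to Botrytis in tomato, had 0.228, 10.1 and 6.39 TPM in epicarp 0 d replicates 1, 2 and 3, against 0.235, 0.708 and 0.165 TPM in control. WRKY47 (Solyc01g058540.3) had 20.8, 2.23 and 0 TPM at 0 d, against 22.6, 15.8 and 16.8 TPM in control. Neither passed the test between these groups.

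**Figure D3:**
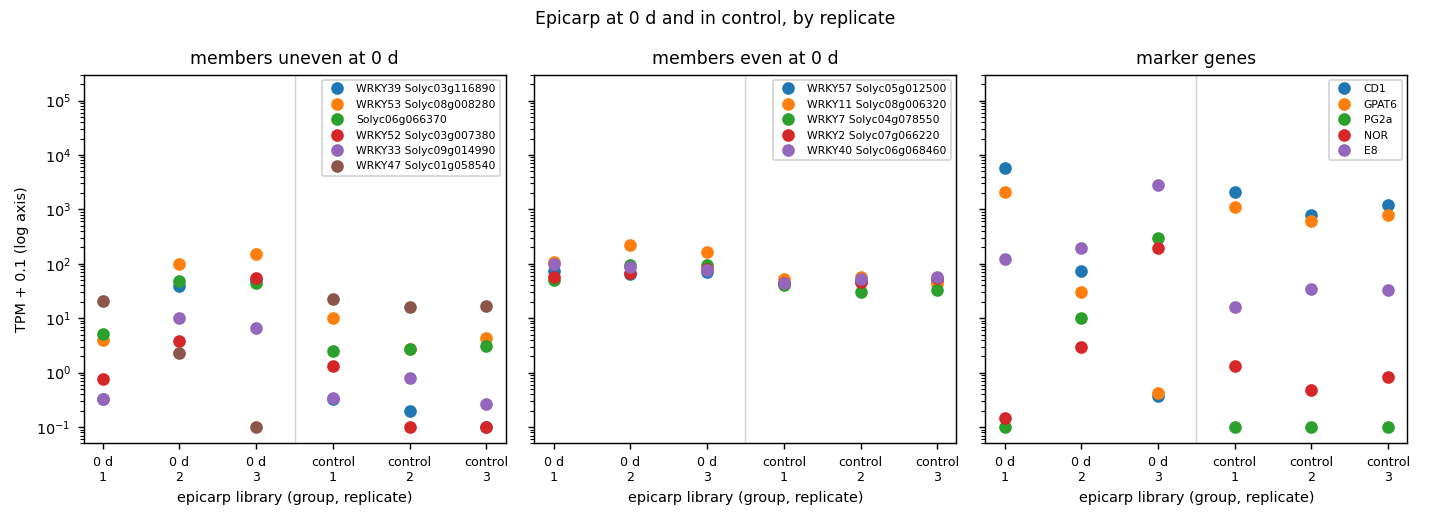
TPM + 0.1 on a log axis for WRKY members that differ between the epicarp 0 d libraries (left), members that differ little (middle) and marker genes (right), in the 3 epicarp 0 d and 3 epicarp control libraries; the members of the left and middle panels were chosen after their values were seen. At 0 d WRKY39 runs from 0.222 to 49.7 TPM and CD1 from 5746 down to 0.274 TPM, whereas WRKY57 stays between 65.9 and 73.6 TPM.

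In mesocarp no member passed the test between 0 d and control, where 2.4% of all genes rose and 1.9% fell (4.3% in either direction). Here 3 members had an unadjusted p under 0.05 in edgeR and 2 passed in DESeq2. The smallest p-values were those of WRKY39 and WRKY37. WRKY39 stood at 0.276, 2.96 and 5.55 TPM at 0 d, against 0.113, 0 and 0.108 TPM in control (edgeR adjusted p = 0.0766). WRKY37 stood at 11.4, 17.7 and 20.2 TPM at 0 d, against 6.03, 8.72 and 8.72 TPM in control (edgeR adjusted p = 0.106). Neither pair of groups overlapped. Without mesocarp 0 d replicate 1, 4 members passed. The share of all genes passing in that fit is not given here.

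After 2 d of light, most of the epicarp changes ran downward. Of 43 members, 4 rose and 17 fell at 2 d relative to 0 d, where 17.6% of all genes rose and 19% fell (36.7% in either direction). The members' median log2 change was -0.82, against -0.07 over all genes. This comparison and that of 0 d with control share the epicarp 0 d libraries, so they are not independent. In all, 11 members both rose at 0 d relative to control and fell at 2 d relative to 0 d. The share of all genes with both calls is not given here.

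WRKY57 fell to 25.4, 27.8 and 29.1 TPM at 2 d, against 73.6, 65.9 and 71.5 TPM at 0 d. The 2 d libraries were below every other epicarp library, and the log2 change was -1.23 ± 0.10 (edgeR adjusted p = 4.33e-08). WRKY11 fell to 19.9, 10.9 and 16.4 TPM at 2 d, against 110, 222 and 167 TPM at 0 d, a log2 change of -3.28 ± 0.38 (edgeR adjusted p = 2.67e-06). WRKY2 fell to 33.7, 34.6 and 31.1 TPM, against 56.7, 68.8 and 81.8 TPM at 0 d, a log2 change of -0.93 ± 0.16 (edgeR adjusted p = 0.000168). In all 3 genes the groups were separate, and the calls held with each library left out.

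Of the members uneven at 0 d, WRKY41 had 0.530, 0.714 and 1.60 TPM at 2 d, against 17.2, 87.0 and 18.9 TPM at 0 d, and fell by 5.36 ± 0.87 on the log2 scale (edgeR adjusted p = 0.000108). WRKY53 had 4.97, 4.30 and 2.30 TPM at 2 d, which overlaps the 3.95 TPM of 0 d replicate 1. WRKY39 had 0.151, 0.261 and 0.488 TPM at 2 d, likewise overlapping replicate 1. WRKY52 was left with 1 read at 2 d, against 477 at 0 d, a ratio of 517 with a 95% counting interval of 92.3 to 20460 (edgeR adjusted p = 0.00469). The 0 d reads were 6, 32 and 439 in replicates 1, 2 and 3, and without replicate 3 the ratio was 59.9 with an interval of 10.1 to 2428, while the call held without each library. The second gene named WRKY22 (Solyc10g011910.5) had 1 read against 58, a ratio of 62.8 with an interval of 10.8 to 2524, which covers counting error only. WRKY40 (Solyc06g068460.3), whose Arabidopsis namesake acts in defence and abscisic acid signalling, fell to 32.6, 33.2 and 36.4 TPM, against 98.6, 87.6 and 76.8 TPM at 0 d (log2 change -1.24 ± 0.43; edgeR adjusted p = 0.0319, and 0.0774 to 0.0937 without 5 of the 6 libraries in turn).

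A small set rose in light in both tissues: WRKY8, WRKY22 (Solyc01g095100.4), WRKY21 and WRKY3. The share of all genes that rose in both tissues is not given here. WRKY8 (Solyc02g093050.3; chromosome 2, 52054350 to 52056263, plus strand), which raises resistance to Pseudomonas and drought in tomato, stood at 86.0, 84.0 and 62.4 TPM in epicarp at 2 d, against 17.7, 10.9 and 48.3 TPM at 0 d. In mesocarp it stood at 42.7, 49.2 and 50.2 TPM at 2 d, against 6.53, 1.60 and 4.59 TPM at 0 d. Neither tissue's groups overlapped, and the log2 changes were 1.76 ± 0.47 in epicarp (edgeR adjusted p = 0.00692) and 3.69 ± 0.52 in mesocarp (edgeR adjusted p = 4.56e-05). The difference of these changes did not pass the test (-1.92 ± 0.67; edgeR adjusted p = 0.185).

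WRKY22 (Solyc01g095100.4; chromosome 1, 78760435 to 78762030, plus strand), whose Arabidopsis namesake acts below MAP kinases in immunity and in dark-induced senescence, was highest at 2 d in both tissues. It stood at 10.4, 14.1 and 10.5 TPM in epicarp at 2 d, against 1.02, 3.12 and 4.75 TPM at 0 d. In mesocarp it stood at 7.05, 7.38 and 9.22 TPM at 2 d, against 1.51, 0.148 and 0.160 TPM at 0 d. The log2 changes were 2.12 ± 0.78 in epicarp (edgeR adjusted p = 0.0389) and 3.89 ± 0.86 in mesocarp (edgeR adjusted p = 0.00262). The epicarp call ended without any of 5 of the 6 libraries (adjusted p = 0.0621 to 0.116), while the mesocarp call held without each.

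WRKY21 rose by 0.85 ± 0.16 in epicarp (edgeR adjusted p = 0.000477) and by 0.78 ± 0.16 in mesocarp (edgeR adjusted p = 0.00171). Its levels were 77.4, 77.5 and 75.2 TPM in epicarp at 2 d, against 57.9, 40.3 and 41.9 TPM at 0 d, and 83.8, 76.9 and 74.1 TPM in mesocarp at 2 d, against 52.6, 64.5 and 40.2 TPM at 0 d. WRKY3 rose by 0.63 ± 0.21 in epicarp and 0.60 ± 0.21 in mesocarp (edgeR adjusted p = 0.0212 and 0.0417), and single libraries ended both calls: the adjusted p was 0.0761 in epicarp and 0.151 in mesocarp without 0 d replicate 1, and 0.053 and 0.117 without 2 d replicate 2; the mesocarp call also ended without 2 d replicate 3 (0.123).

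Mesocarp had 6 members higher and 4 lower at 2 d than at 0 d, where 13.3% of all genes rose and 10.8% fell (24.1% in either direction). In either direction 23.3% of the tested members were called, near the share of all genes. Beside the members shared with epicarp, WRKY4 (Solyc05g012770.3) rose to 10.4, 14.3 and 11.2 TPM at 2 d, against 5.25, 3.63 and 6.77 TPM at 0 d (log2 change 1.40 ± 0.30; edgeR adjusted p = 0.00218). The low-level member Solyc02g071130.5 rose on 60 reads against 10, a call that ended without any of 5 of the 6 libraries (edgeR adjusted p = 0.0592 to 0.107). WRKY11 fell to 29.0, 18.5 and 25.8 TPM at 2 d, against 72.7, 104 and 56.1 TPM at 0 d (log2 change -1.47 ± 0.36; edgeR adjusted p = 0.00527). WRKY20, WRKY2 and WRKY57 fell by 0.52, 0.50 and 0.34 on the log2 scale, and single libraries ended the calls of WRKY2 (edgeR adjusted p = 0.0623 without 2 d replicate 3 and 0.178 without 0 d replicate 3) and WRKY57 (0.0511 without 2 d replicate 1 and 0.0647 without 0 d replicate 3). WRKY11, WRKY2 and WRKY57 thus fell in both tissues, with no share over all genes given here.

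**Figure D4:**
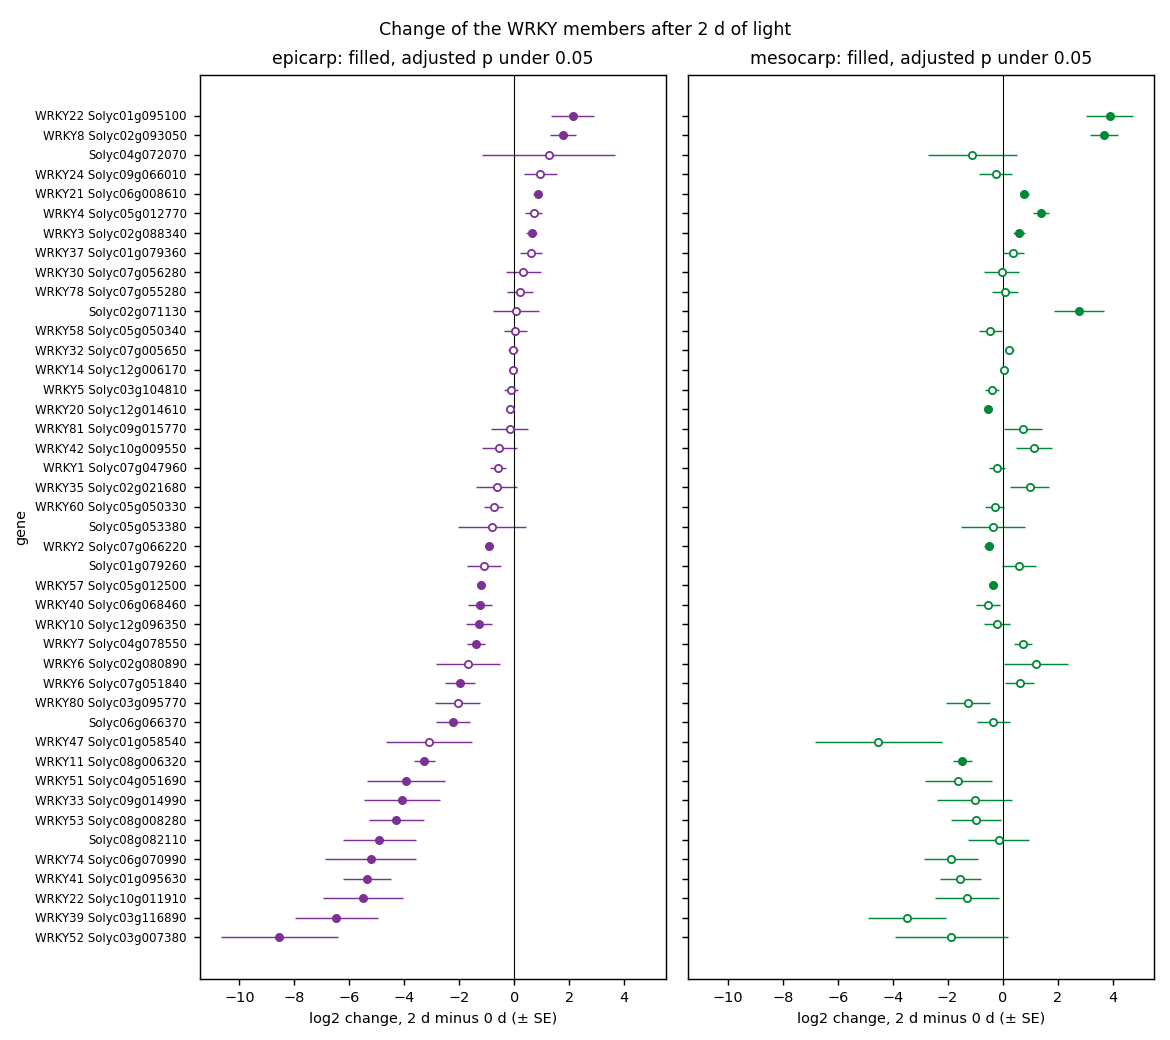
Log2 change ± SE at 2 d relative to 0 d for each of the 43 tested members (rows, ordered by the epicarp change) in epicarp (left) and mesocarp (right); filled points have an edgeR adjusted p under 0.05. In epicarp 17 filled points lie below 0 and 4 above, and in mesocarp 4 lie below and 6 above.

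The size of the change differed between tissues for WRKY57 and WRKY7. For WRKY57 the change at 2 d relative to 0 d was more negative in epicarp than in mesocarp by 0.89 ± 0.14 on the log2 scale (edgeR adjusted p = 0.00286), a call that held with each library left out. In mesocarp WRKY57 stood at 20.3, 24 and 23.1 TPM at 2 d, against 30.2, 32.8 and 35.0 TPM at 0 d. WRKY7 had 39.2, 25.7 and 32.8 TPM in mesocarp at 2 d, against 20.4, 21.3 and 25.5 TPM at 0 d, while in epicarp it had 32.6, 28.2 and 23.4 TPM at 2 d, against 50.8, 96.6 and 94.0 TPM at 0 d. Its difference between tissues was -2.13 ± 0.46 (edgeR adjusted p = 0.0259), and leaving out any of 6 of the 12 libraries ended the call (adjusted p = 0.0586 to 0.0875).

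Both differences were negative, where 0.668% of all genes had a positive and 0.576% a negative difference (1.24% in either direction). For 0 d relative to control, WRKY57 alone passed, where 0.744% of genes had a positive and 1.82% a negative difference (2.56% in either direction): its change was higher in epicarp than in mesocarp by 0.63 ± 0.14 (edgeR adjusted p = 0.0209, and 0.0554 to 0.083 without each of 7 of the 12 libraries). In mesocarp its level was 30.2, 32.8 and 35.0 TPM at 0 d, against 35.5, 37.6 and 37.3 TPM in control. Libraries of the same number in the 2 tissues deviated together at 0 d and 2 d, and with the replicate number as a block within each condition 4 members passed for the light step and 3 for the dark step. Leaving out single libraries gave 1 to 3 members for the light step and 0 to 5 for the dark step, with 5 when epicarp 0 d replicate 1 was left out. These other fits are given without the share of all genes passing.

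**Figure D5:**
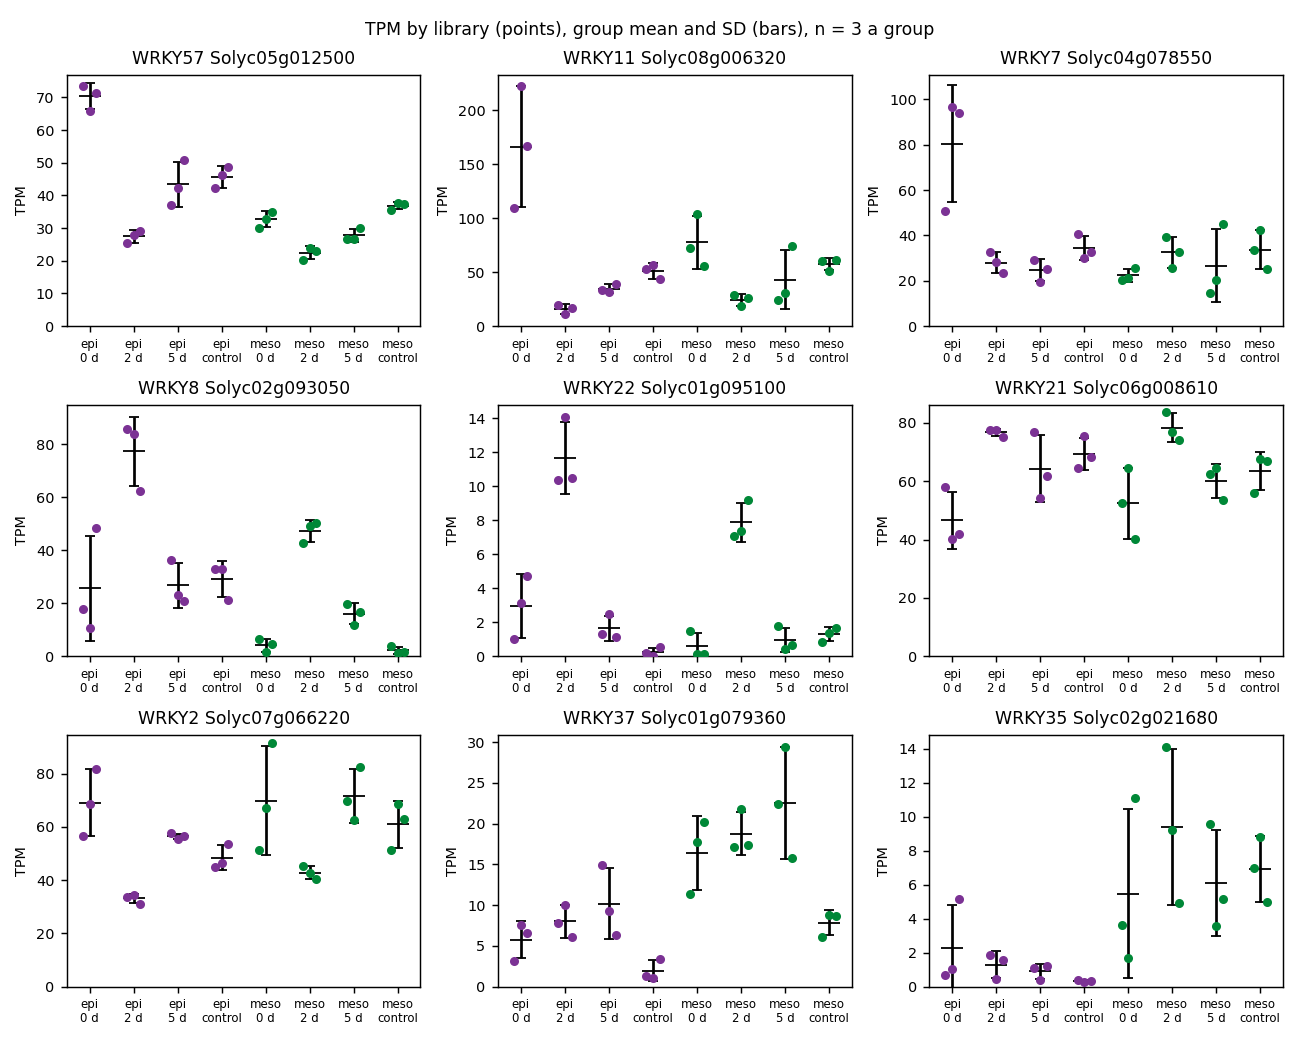
TPM of 9 WRKY members in each library (points) with the group mean and SD (bars, n = 3), by group, epicarp in purple and mesocarp in green; the members were chosen after their values were seen. WRKY57 and WRKY11 peak in epicarp at 0 d, at means of 70.3 and 166 TPM, and WRKY8 and WRKY22 peak at 2 d in both tissues, WRKY8 at means of 77.4 and 47.4 TPM.

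Between 2 d and 5 d of light 2 members passed in epicarp and 1 in mesocarp, with 12 at an unadjusted p under 0.05 in each tissue. DESeq2 called 6 in each tissue, and edgeR on the 2 groups alone called 8 in epicarp and 3 in mesocarp. The shares of all genes passing in these other fits are not given here, so these counts describe only how stable the result was. In epicarp WRKY57 and WRKY2 rose, by 0.64 ± 0.10 and 0.75 ± 0.16 on the log2 scale (edgeR adjusted p = 0.00148 and 0.0128), where 1.06% of all genes rose and 2.21% fell (3.27% in either direction). WRKY57 was then at 37.1, 42.4 and 50.8 TPM at 5 d, against 25.4, 27.8 and 29.1 TPM at 2 d. In mesocarp WRKY2 alone rose, by 0.69 ± 0.16 (edgeR adjusted p = 0.025), where 1.07% of genes rose and 1.44% fell (2.51% in either direction); its level was 69.8, 62.5 and 82.5 TPM at 5 d, against 45.2, 42.6 and 40.5 TPM at 2 d. WRKY2 without epicarp 2 d replicate 3 had an adjusted p of 0.0586, and the mesocarp call ended without 2 d replicates 1 or 3 or 5 d replicate 3 (0.0515 to 0.101).

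WRKY8 and WRKY22 were lower at 5 d than at 2 d without passing the test. WRKY8 stood at 36.5, 23.1 and 20.99 TPM in epicarp at 5 d, against 86.0, 84.0 and 62.4 TPM at 2 d (edgeR adjusted p = 0.0812). In mesocarp it stood at 19.6, 11.8 and 16.9 TPM at 5 d, against 42.7, 49.2 and 50.2 TPM at 2 d (edgeR adjusted p = 0.0804). WRKY22 stood at 1.30, 2.51 and 1.13 TPM in epicarp at 5 d and 1.80, 0.452 and 0.662 TPM in mesocarp at 5 d (edgeR adjusted p = 0.0588 and 0.0534 against 2 d). The groups did not overlap in any of these 4 comparisons.

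Set against 0 d, 2 members rose and 10 fell in epicarp at 5 d, where 14.3% of all genes rose and 14.2% fell (28.5% in either direction). In either direction 27.9% of the tested members were called, near the share of all genes. WRKY3 and WRKY21 were the members that rose, the second with a call that ended without any of 3 libraries (edgeR adjusted p = 0.0525 to 0.0883). WRKY11 at 33.4, 31.3 and 39.1 TPM at 5 d, against 110, 222 and 167 TPM at 0 d, fell by 2.17 ± 0.36 (edgeR adjusted p = 0.000183), and WRKY7 fell by 1.60 ± 0.33 (edgeR adjusted p = 0.00124). Without 0 d replicate 2, or without any single 5 d library, 6 or 7 members passed. In mesocarp WRKY8, WRKY10 (Solyc12g096350.2) and WRKY3 rose and none fell, where 11.1% of genes rose and 8.09% fell (19.2% in either direction); on the 2 groups alone none of the 3 passed, and WRKY10 and WRKY3 also lost their calls without any of 4 and any of 2 libraries (edgeR adjusted p = 0.0928 to 0.207, and 0.0528 and 0.0609).

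At 5 d some members were above their level in control fruit, which had grown for fewer days. In epicarp 4 members were higher and 0 lower than in control, where 8.42% of all genes were higher and 6.51% lower (14.9% in either direction). These 4 were 9.30% of the tested members, near the share of all genes that were higher and below that in either direction. WRKY37 (chromosome 1, 71028518 to 71030182, minus strand), which promotes leaf senescence in the dark in tomato, stood at 14.9, 9.31 and 6.32 TPM at 5 d, against 1.34, 1.04 and 3.39 TPM in control. The groups were separate and the log2 change was 2.46 ± 0.44 (edgeR adjusted p = 0.0013). Solyc06g066370.5, WRKY22 (Solyc01g095100.4) and WRKY20 were higher by 2.17, 2.80 and 0.43. Only WRKY37 kept its call with each library left out; without epicarp 5 d replicate 1 or 2 or control replicate 1 or 2, it was the 1 member left.

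In mesocarp at 5 d, 9 members were higher and 0 lower than in control, where 12.6% of all genes were higher and 7.71% lower (20.3% in either direction). These 9 were 20.9% of the tested members, above the share of all genes that were higher and near that in either direction. WRKY8 stood at 19.6, 11.8 and 16.9 TPM, against 3.88, 1.42 and 1.79 TPM in control (log2 change 2.99 ± 0.53; edgeR adjusted p = 0.000549). WRKY37 stood at 22.4, 29.5 and 15.7 TPM, against 6.03, 8.72 and 8.72 TPM in control (1.79 ± 0.41; edgeR adjusted p = 0.00458). Both pairs of groups were separate. WRKY37 and Solyc06g066370.5 were higher than control in both tissues at 5 d, with no share over all genes given here.

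The other 7 mesocarp calls each ended without at least 1 library. WRKY33 had 0.547, 1.41 and 9.35 TPM at 5 d, against 0, 0 and 0.134 TPM in control, or 278 reads against 3, a ratio of 86.2 with a 95% counting interval of 29.2 to 420 (edgeR adjusted p = 0.0105; 0.0637 without 5 d replicate 3). Of the 40 members with at least 10 reads on average, 10 differed at least 4-fold among the mesocarp 5 d libraries, against 5.76% of genes, and 9 of these 10 were highest in replicate 3. Without that library, or without control replicate 3, 3 members passed, and without control replicate 2 there were 4. The 5 d replicate 3 library is one whose reads were recovered from its TPM column.

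Between the tissues, WRKY74 and WRKY37 were called lower in epicarp in all 4 conditions, though without the filter on low counts WRKY74 at 0 d (adjusted p = 0.0526) and WRKY37 at 5 d (0.0531) did not pass. WRKY74 was nearly absent from epicarp, with 0 reads in epicarp at 2 d, at 5 d and in control, against 33, 56 and 105 reads in mesocarp. It was thus at least 11.6-fold, 18.2-fold and 36.7-fold lower in epicarp under these conditions, on a floor of 3 reads over the group. WRKY37 was lower in epicarp by 1.86 ± 0.43 in control, 1.52 ± 0.41 at 0 d, 1.31 ± 0.41 at 2 d and 1.20 ± 0.41 at 5 d on the log2 scale (edgeR adjusted p = 0.00355 to 0.048). Its call held in control without each library, and ended at 0 d without epicarp replicate 1 (0.0536), at 2 d without any of 5 of the 6 libraries (0.0571 to 0.121) and at 5 d without any of 4 (0.0976 to 0.191); with the block it had an adjusted p of 0.0629 at 5 d. WRKY74 at 0 d lost its call without any of 4 libraries (0.0726 to 0.108), and with the block within each condition (0.0866). Of the tested members, 2 were called lower in epicarp in all 4 conditions and 0 higher in all 4, with no share over all genes given here.

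WRKY35 (chromosome 2, 21935921 to 21938921, plus strand), which promotes carotenoid synthesis in tomato fruit, was lower in epicarp in control, at 2 d and at 5 d; the 2 d call ended without epicarp replicate 2 (edgeR adjusted p = 0.0587) and the 5 d call without epicarp replicate 2 or mesocarp replicate 1 (0.0782 and 0.0702). It stood at 0.372, 0.247 and 0.327 TPM in epicarp control, against 6.97, 8.83 and 4.97 TPM in mesocarp control, with no overlap. The log2 difference was -4.28 ± 0.85 (edgeR adjusted p = 0.00103). At 0 d it stood at 0.676, 1.04 and 5.16 TPM in epicarp and 3.63, 1.69 and 11.1 TPM in mesocarp, which overlap.

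In control fruit 7 members were higher and 4 lower in epicarp than in mesocarp, where 13.2% of all genes were higher and 13.6% lower (26.8% in either direction). Called in either direction were 25.6% of the tested members, near the share of all genes. WRKY8 was higher in epicarp, with 32.9, 33.0 and 21.3 TPM, against 3.88, 1.42 and 1.79 TPM in mesocarp (log2 difference 3.75 ± 0.54; edgeR adjusted p = 5.19e-05). WRKY47, at 22.6, 15.8 and 16.8 TPM in epicarp control, against 0, 0.938 and 0.258 TPM in mesocarp control, was higher by 5.72 ± 1.76 (edgeR adjusted p = 0.0216; 0.0754 and 0.0794 without mesocarp control replicates 1 and 3). WRKY3, WRKY57, WRKY40, WRKY42 (Solyc10g009550.3) and WRKY14 (Solyc12g006170.2) were also higher, by 0.40 to 1.91. The WRKY40 call (edgeR adjusted p = 0.0466) ended without any single library (0.0696 to 0.126), without the filter on low counts (0.0602), with DESeq2 size factors (0.0517) and with the replicate number as a block (0.0611). That of WRKY42 (0.0396) ended without any of 5 of the 6 libraries (0.0552 to 0.136) and with the block (0.0544).

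At 0 d 9 members were higher and 2 lower in epicarp, where 8.78% of all genes were higher and 9.57% lower (18.3% in either direction). WRKY57 at 73.6, 65.9 and 71.5 TPM in epicarp, against 30.2, 32.8 and 35.0 TPM in mesocarp, differed by 1.10 ± 0.10 (edgeR adjusted p = 1.18e-06). WRKY7 differed by 1.84 ± 0.33, WRKY40 by 1.85 ± 0.44 and WRKY8 by 2.55 ± 0.50 (edgeR adjusted p = 0.000919, 0.00702 and 0.0019). On the 0 d libraries alone 0 members passed with edgeR, whereas DESeq2 on all libraries called 19. Without epicarp replicate 1 the count was 17, all higher, and without epicarp replicate 2 it was 7. The shares of all genes passing in these other fits are not given here.

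At 2 d of light 2 members were higher and 3 lower in epicarp than in mesocarp, where 8.2% of all genes were higher and 10.3% lower (18.5% in either direction). At 5 d 4 members were higher and 4 lower, where 7.12% of genes were higher and 10.4% lower (17.5% in either direction). In either direction 11.6% of the tested members were called at 2 d and 18.6% at 5 d, below and near the shares of all genes. With the replicate number as a block within each condition, a setting chosen after seeing the data, 10 members passed at 2 d. On the 2 d libraries alone 12 passed. No share of all genes is given here for these other fits. Without epicarp 2 d replicate 2 or 3 or any single mesocarp 2 d library 3 passed at 2 d, and at 5 d the count was 2 without epicarp replicate 2, 3 without mesocarp replicate 1, and 4 without epicarp replicate 3 or mesocarp replicate 2. WRKY20 was higher in epicarp at 2 d, at 13.4, 17.1 and 15.2 TPM, against 10.5, 8.87 and 8.04 TPM in mesocarp (log2 difference 0.66 ± 0.13; edgeR adjusted p = 0.00161). At 5 d WRKY32 (Solyc07g005650.4), a promoter of ripening in tomato fruit, was higher in epicarp at 8.68, 9.02 and 8.10 TPM, against 4.60, 6.06 and 5.94 TPM in mesocarp (0.59 ± 0.17; edgeR adjusted p = 0.0232, and 0.0609 to 0.113 without any of 3 of the 6 libraries).

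Over the 16 contrasts 34 of the 43 tested members passed at least 1 test (79.1%, against 69.7% of all 19620 tested genes) and 9 passed none. The 9 include WRKY81, the member of highest mean level, whose libraries spread widely: it ran from 40.8 to 219 TPM in epicarp at 0 d and from 14.9 to 230 TPM in mesocarp at 0 d. WRKY80 (Solyc03g095770.3) had 12.8 to 76.4 TPM in epicarp at 0 d and 87.8 to 113 TPM in mesocarp control, and WRKY5 stayed between 38.6 and 96.3 TPM over all libraries. A p above the threshold does not show that these genes were unchanged.

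Genes that act with WRKY factors were counted from lists drawn by words in the descriptions. Of 88 tested MAP kinase cascade genes, 17 rose and 2 fell in epicarp at 0 d relative to control, and 9 rose and 21 fell at 2 d relative to 0 d. Those called in either direction were 21.6% of the list at 0 d relative to control and 34.1% at 2 d relative to 0 d, against 19.1% and 36.7% of all tested genes. By direction, 19.3% rose and 2.27% fell at 0 d relative to control, against 10.1% and 9.08% of all genes. At 2 d relative to 0 d 10.2% rose and 23.9% fell, against 17.6% and 19%. The median log2 changes were 0.11 and -0.15, against 0.04 and -0.07 over all genes. MAP kinase kinase kinase 51 (Solyc07g051870.1) had 61.3, 74.0 and 61.2 TPM in epicarp at 2 d, against 0 TPM in all 3 libraries at 0 d. In mesocarp it had 27.6, 50.5 and 39.0 TPM at 2 d, again against 0 TPM in all 3 at 0 d. It was at least 471-fold higher in epicarp and at least 313-fold higher in mesocarp on a floor of 3 reads over the group (edgeR adjusted p = 2.58e-07 and 6.13e-07).

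Of 9 tested VQ-motif genes, whose products bind WRKY domains, 1 rose and 3 fell in epicarp at 2 d relative to 0 d (44.4%, against 36.7% of all genes). A gene described as VQ motif-containing protein 4 (Solyc02g078030.3) fell by 1.59 ± 0.27 in epicarp (edgeR adjusted p = 0.000125), and its change was more negative in epicarp than in mesocarp by 1.80 ± 0.37 (edgeR adjusted p = 0.0172). Of 16 tested pathogenesis-related genes, common targets of WRKY factors, 1 rose and 2 fell at 0 d relative to control in epicarp, and 5 rose and 1 fell at 2 d relative to 0 d. In either direction these are 18.8% and 37.5% of the list, against 19.1% and 36.7% of all genes, so those shares were near the background. At 2 d relative to 0 d 31.25% of the list rose and 6.25% fell, against 17.6% and 19% of all genes. Of 3 salicylic acid signalling genes, isochorismate synthase (Solyc06g071030.3) rose by 1.95 ± 0.53 in mesocarp at 2 d relative to 0 d (edgeR adjusted p = 0.0113).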

How the data were processed

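The members and lists were chosen with earlier results of these data known. Per the submitters' processing notes, reads were trimmed with Trimmomatic 0.39 and counted with featureCounts, and the deposited table gives these raw counts for each gene; the sources used here state neither the aligner nor the strand setting. Each gene is 1 interval including introns. The deposited TPM table holds TPM values by the authors, equal in the other 22 libraries to these reads per interval length. A pair of count columns share 1 name and were not used (2 columns); reads of mesocarp 2 d and 5 d replicate 3 were recovered from TPM, with 100.0% of genes whole within 0.01.

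Counts were tested with edgeR 4.0.16 in R 4.3.3: TMM, filterByExpr by group (19620 genes), 1 model of 8 group means, robust quasi-likelihood fits and Benjamini-Hochberg adjustment over all genes per contrast at 0.05, for 16 contrasts. SE is the log2 change over the square root of F. DESeq2 1.42.0 and other settings were alternatives. The fit was tested on simulated data. Depth of 18402751 to 23197867 reads bounds 0 reads at 3 reads, 0.129 to 0.163 CPM, counting error only.

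Same-numbered epicarp and mesocarp libraries deviated together, with correlations of 0.385 to 0.644 for the 0 d pairs. They were 0.124 to 0.171 for 2 d pairs and from 0.194 up to 0.305 for 5 d pairs, so the number pairs the tissues there. Control (0.0454 to 0.212) and conditions within a tissue were not paired. The main tests between tissues did not use this pairing, and the block within each condition did. Named members are, per contrast, up to 8 largest changes each way past the threshold, the 2 smallest p where none passed, the 10 highest by mean TPM and members without reads; others were chosen after their values were seen. Group sums, ranges and figures use Python 3.11.15, pandas 2.3.3, numpy 2.4.6 and matplotlib 3.10.9.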

Additional observations from a re-analysis of the deposited data

Results flagged for a closer look

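The change of WRKY57 (Solyc05g012500.3) differed between the tissues in both steps by the interaction term of the edgeR fit. For 0 d relative to control the epicarp change exceeded the mesocarp change by 0.63 (log2, adjusted p = 0.0209), and for 2 d relative to 0 d the epicarp change minus the mesocarp change was -0.89 (adjusted p = 0.00286). Both use the 0 d libraries, so they are not independent of each other.

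WRKY7 (Solyc04g078550.3) differed between the tissues at 2 d relative to 0 d, with an epicarp change minus mesocarp change of -2.13 (log2, adjusted p = 0.0259). Its level was lower in all 3 epicarp libraries at 2 d than in all 3 at 0 d, and higher in all 3 mesocarp libraries at 2 d than in all 3 at 0 d.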

How the results depend on the processing

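None of the results reversed under any alternative. Counts of members called moved by over 1.5 times as follows, each against the count reported above. They stand without the share of all genes called in the same fit, so they describe only how stable each count was. Fitted on only the groups compared, epicarp gave 2 (0 d against control), 12 (2 d against 0 d), 4 (5 d against 0 d), 8 (5 d against 2 d) and 7 (5 d against control). The same fit gave 6, 0 and 3 in mesocarp for 2 d against 0 d, 5 d against 0 d and 5 d against 2 d, 0 and 12 between tissues at 0 d and 2 d, and 0 and 1 for the differences between tissues in the dark and light steps. DESeq2 gave 6 for 5 d against 2 d in each tissue, 2 for mesocarp 0 d against control, 19 and 9 between tissues at 0 d and 2 d, and 3 and 5 for the differences. Without the low count filter epicarp 5 d against control gave 2. The replicate block over all libraries moved no count by over 1.5 times; the replicate block within each condition, chosen after seeing the data, gave 10 between tissues at 2 d, and 3 and 4 for the differences. The cause was not tested; the fits on single groups use fewer samples.

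With each library left out in turn, epicarp gave 9 to 19 (0 d against control), 14 to 23 (2 d against 0 d), 6 to 15 (5 d against 0 d), 1 to 2 (5 d against 2 d) and 1 to 3 (5 d against control). Mesocarp gave 0 to 4, 7 to 9, 2 to 3, 0 to 2 and 3 to 9 in the same order. Between tissues the ranges were 8 to 10 (control), 7 to 17 (0 d), 3 to 4 (2 d) and 2 to 7 (5 d), with 0 to 5 and 1 to 3 for the differences in the dark and light steps.

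Depth limits the 21 members with too few reads for the test, for which a difference was not detectable.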

Other observations

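WRKY47 (Solyc01g058540.3) and the cutin synthase gene CD1 were high in the same epicarp libraries. In epicarp at 0 d WRKY47 stood at 20.8, 2.23 and 0 TPM and CD1 at 5746, 73.7 and 0.274 TPM. In epicarp at 5 d WRKY47 stood at 0.181, 2.27 and 7.37 TPM and CD1 at 2.21, 4.78 and 882 TPM, and in epicarp control they stood at 15.8 to 22.6 TPM and 797.6 to 2084 TPM. In mesocarp at 0 d replicate 1 held 3.07 TPM of WRKY47 and 370.5 TPM of CD1, and the other two libraries held 0 TPM of WRKY47. The pair was picked after its values were seen and was not tested.

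Epicarp at 0 d was the group of highest mean level for 19 of the 40 members with at least 10 reads on average (47.5%), against 20.95% of 18300 genes of that abundance. These shares describe group means, which in epicarp at 0 d rest on uneven libraries.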
